A study of Homo sapiens with 6 samples.

Results

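The 10 genes described here encode the telomere-capping complex shelterin, the chromatin pair ATRX and DAXX, the telomere helicase RTEL1 and the telomerase catalytic subunit TERT. They were chosen by gene symbol from 23228 symbols in a table of read counts, and all 10 were found. The counts come from U2OS, an established human osteosarcoma line, transfected for 48 hours with siRNA against ALKBH5 (3 libraries) or with a scrambled siRNA (3 libraries). ALKBH5 is a demethylase of N6-methyladenosine (m6A) in RNA. Both groups are the same line, received the same lipid reagent and were harvested at the same time, so the siRNA is the labelled difference. Whether the replicates were separate cultures is not in the labels, and the spread behind each p-value may therefore be technical. No other siRNA and no rescue is part of these data, so the loss of ALKBH5 and other effects of the siRNAs cannot be told apart.

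Telomeres are capped by shelterin. TERF1 and TERF2 bind double-stranded telomeric repeats, TERF2IP (RAP1) rides on TERF2, POT1 binds the single-stranded overhang, ACD (TPP1) holds POT1, and TINF2 (TIN2) bridges the subunits. Most cancer cells lengthen telomeres with telomerase, whose reverse transcriptase is TERT. U2OS is a standard example of a line that uses recombination instead, the alternative lengthening of telomeres (ALT) pathway. ATRX and DAXX together deposit the histone variant H3.3 at telomeres and other repeats, and U2OS is known to lack functional ATRX protein.

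Reads in genes numbered 19748583 to 19919797 in the ALKBH5 siRNA libraries and 18817181 to 23410007 in the scrambled libraries. The share of uniquely placed reads that fell outside genes was 17.9% ± 0.656 in the ALKBH5 siRNA libraries and 15.3% ± 0.230 in the scrambled libraries (SD, n = 3), and its part in the results was not tested. ALKBH5 itself stood at 19.4, 16.2 and 15.7 CPM (reads per library size, scaled with TMM factors) in the ALKBH5 siRNA libraries, against 138, 148 and 143 CPM in the scrambled libraries. It was 8.35-fold lower in ALKBH5 siRNA cells, and an exact 2-sided permutation test of the CPM gave p = 0.1, the smallest that 3 libraries against 3 allow. The 8 mesenchymal and osteoblast markers summed to 4832 to 5603 CPM in the ALKBH5 siRNA libraries. In the scrambled libraries the sum was 5524 to 5767 CPM. Most of it came from VIM, SPARC and COL1A1, while the mesenchymal factor TWIST1 was at or near 0. COL1A2 was low, at 0.768 to 1.64 CPM in the ALKBH5 siRNA and 1.04 to 9.70 CPM in the scrambled libraries. Mean CPM of VIM, SPARC and COL1A2 was lower in ALKBH5 siRNA cells, and that of COL1A1, RUNX2, CDH2 and CDH11 was higher. The 6 epithelial markers summed to 5.63 to 10.5 CPM in the ALKBH5 siRNA libraries and to 13.3 to 19.1 CPM in the scrambled libraries. The 5 leukocyte markers summed to 4.26 to 5.02 CPM in the ALKBH5 siRNA libraries and to 1.87 to 2.82 CPM in the scrambled libraries, and the 4 endothelial markers to 1.37 to 2.41 CPM in the ALKBH5 siRNA libraries and to 6.22 to 8.74 CPM in the scrambled libraries. Within the epithelial and leukocyte sums, single genes went opposite ways. Mean CPM of KRT14 was 0.362 in ALKBH5 siRNA and 8.34 in scrambled siRNA cells, and that of CDH1 was 1.38 and 0.498. In the same order, mean CPM of LAPTM5 was 3.67 and 1.06, and that of PTPRC was 0.619 and 1.31. The part of these low levels in the results was not tested.

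Of the 6 shelterin genes 3 rose in ALKBH5 siRNA cells, and 0 fell. TERF2, the gene of the subunit that protects chromosome ends from end joining, rose 1.90-fold, ACD 1.39-fold and TERF2IP 1.28-fold. Of the other genes, ATRX rose 1.35-fold, while DAXX and RTEL1 did not pass the test and TERT was at or near 0 in every library. Counted over the 10 genes, 9 were abundant enough to test, 4 were higher and 0 lower (edgeR quasi-likelihood test, Benjamini-Hochberg adjusted p under 0.05 over all tested genes). In the same test 61.6% of all 14504 tested genes passed, 30.8% as higher and 30.8% as lower, so 4 of 9 telomere genes is no more than the background. The groups did not overlap in CPM in the same 4 of 9 genes, against 67.4% of all tested genes. The median log2 fold change of the 9 genes was 0.35, against 0.01 over all tested genes. In bulk RNA, fewer cells that express a gene and less RNA of it per cell cannot be told apart.

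TERF2 held 50.4, 58.3 and 50.3 CPM in the ALKBH5 siRNA libraries, against 28.1, 25.6 and 30.0 CPM in the scrambled libraries. Every ALKBH5 siRNA library was far above every scrambled one, and the smallest ALKBH5 siRNA value was well clear of the largest scrambled value. The log2 fold change was 0.93 (SE 0.10, edgeR adjusted p = 9.6e-06). TERF2 was also the only one of the 9 tested genes that passed a test against a change of 1.5-fold (edgeR glmTreat, adjusted p = 0.00394), which 24.8% of all tested genes passed.

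TERF2IP encodes the partner that needs TERF2 to reach the telomere. It held 60.1, 69.1 and 60.5 CPM in the ALKBH5 siRNA libraries, against 49.9, 49.4 and 49.3 CPM in the scrambled libraries. The scrambled libraries lay within 1 CPM of each other and below all ALKBH5 siRNA libraries, for a log2 fold change of 0.35 (SE 0.09, edgeR adjusted p = 0.0043).

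ACD encodes TPP1, which recruits POT1 to shelterin and, in telomerase-positive cells, telomerase to the chromosome end. It held 38.1, 33.9 and 41.8 CPM in the ALKBH5 siRNA libraries, against 26.6, 25.8 and 29.7 CPM in the scrambled libraries. The groups did not overlap, with a log2 fold change of 0.47 (SE 0.11, edgeR adjusted p = 0.0024).

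The other 3 shelterin genes did not pass the test. TERF1, the gene of the other double-strand binding subunit, held 23.0, 27.5 and 21.0 CPM in the ALKBH5 siRNA libraries, against 27.1, 21.5 and 23.9 CPM in the scrambled libraries. POT1 held 20.7, 27.9 and 20.0 CPM in the ALKBH5 siRNA libraries, against 24.5, 24.1 and 24.1 CPM in the scrambled libraries. Here the ALKBH5 siRNA libraries disagreed, with replicate 2 above all scrambled libraries and the other 2 below them. TINF2, the bridging subunit, held 69.0, 68.9 and 71.0 CPM in the ALKBH5 siRNA libraries, against 75.7, 69.5 and 73.7 CPM in the scrambled libraries. The 95% intervals of the log2 fold changes ran from −0.30 to 0.26 for TERF1, from −0.37 to 0.20 for POT1 and from −0.24 to 0.10 for TINF2. A rise as large as that of TERF2 lies outside all 3 intervals. Without ALKBH5 siRNA replicate 2 the log2 fold change of POT1 was −0.25 (edgeR adjusted p = 0.0548), and without ALKBH5 siRNA replicate 3 it was 0.01.

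**Figure D1:**
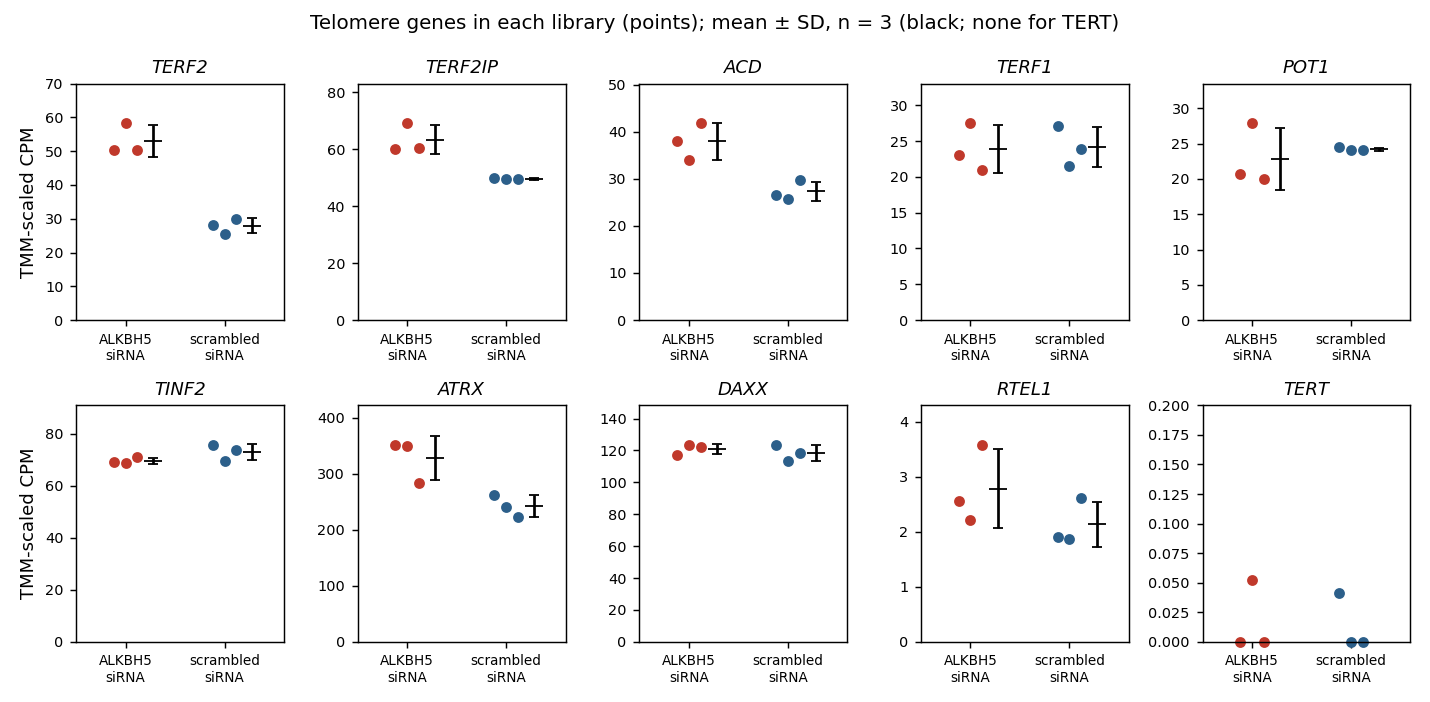
TMM-scaled CPM (vertical axes, each from 0 and with its own range) of the 10 telomere genes in the 3 ALKBH5 siRNA libraries (red, left) and the 3 scrambled libraries (blue, right), with the mean ± SD beside them except for TERT. For TERF2, TERF2IP, ACD and ATRX all red points lie above all blue points, and for the other genes the groups overlap.

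ATRX, a chromatin remodeller whose loss is a frequent mark of ALT tumours, was transcribed at a high level in this line. ATRX held 352, 350 and 283 CPM in the ALKBH5 siRNA libraries, against 263, 241 and 223 CPM in the scrambled libraries. All ALKBH5 siRNA libraries exceeded all scrambled ones, with replicate 3 of the ALKBH5 siRNA libraries closest to them (log2 fold change 0.44, SE 0.10, edgeR adjusted p = 0.0021). Counts summed over a whole gene do not show which exons the reads came from, so the level of ATRX message says nothing about a full-length protein.

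DAXX, the H3.3 chaperone that works with ATRX at telomeres, did not pass the test. It held 117, 124 and 122 CPM in the ALKBH5 siRNA libraries, against 123, 113 and 118 CPM in the scrambled libraries. The groups overlapped, and the 95% interval of the log2 fold change was −0.13 to 0.19 (edgeR adjusted p = 0.74). Per kilobase, the ratio of ATRX to DAXX was 0.702, 0.663 and 0.543 in the ALKBH5 siRNA libraries and 0.498, 0.498 and 0.441 in the scrambled libraries. The ratio was higher in all ALKBH5 siRNA libraries, and its exact 2-sided permutation p was 0.1, the smallest this design allows.

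RTEL1, a helicase that unwinds telomeric loops and quadruplexes, was counted in few reads. It had 50, 42 and 70 reads in the ALKBH5 siRNA libraries, against 46, 39 and 50 reads in the scrambled libraries. In CPM the ALKBH5 siRNA libraries spanned 2.21 to 3.58 and the scrambled libraries 1.87 to 2.62, so the groups overlapped. The log2 fold change was 0.39, with a 95% interval of −0.17 to 0.95 (edgeR adjusted p = 0.21), so the test left both the direction and the size of a difference undecided. Without ALKBH5 siRNA replicate 3 the log2 fold change was 0.17. In the GENCODE 29 annotation 70.2% of the exonic bases of RTEL1 are shared on the same strand with the read-through gene RTEL1-TNFRSF6B, which has its own entry in the table. Between 178598 and 233442 reads per library were set aside as ambiguous between genes, and they are not split by gene. How many of them fall in RTEL1 is not given, so the count of RTEL1 can be a fraction of its reads. The read-through entry itself had 14, 16 and 25 reads in the ALKBH5 siRNA libraries and 3, 16 and 8 reads in the scrambled libraries.

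TERT was at or near 0 in this ALT line. It had 0, 1 and 0 reads in the ALKBH5 siRNA libraries and 1, 0 and 0 reads in the scrambled libraries, 1 read in each group. A count of 0 allows up to 3 reads, which is 0.154 to 0.158 CPM in the ALKBH5 siRNA libraries and 0.125 to 0.157 CPM in the scrambled libraries. No fold change is given because both groups are under that limit, and TERT did not pass the filter on low counts. TERC, the telomerase RNA, was listed at 0 reads in all 6 libraries. It lacks a long poly(A) tail, and the libraries were made from poly(A) RNA, so its level cannot be read from these counts.

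**Figure D2:**
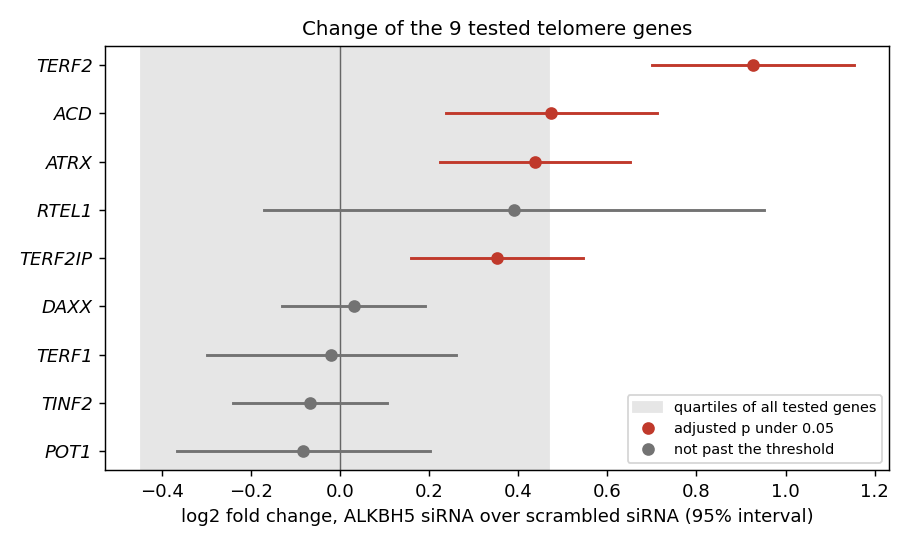
Log2 fold change of ALKBH5 siRNA over scrambled siRNA (horizontal axis) with its 95% interval for the 9 tested telomere genes, in red where the adjusted p is under 0.05 and in grey otherwise. The grey band spans the quartiles of all tested genes, from −0.45 to 0.47, and TERF2 at 0.93 is the gene farthest outside it.

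Set against each other per kilobase of the longest annotated coding transcript, the 10 messages kept 1 order of mean level in both groups. DAXX stood highest, at 46.3 ± 1.25 CPM per kilobase in ALKBH5 siRNA cells and 45.3 ± 1.91 CPM per kilobase in scrambled siRNA cells (SD, n = 3). TINF2, TERF2IP, ATRX, ACD, TERF2, TERF1, POT1, RTEL1 and TERT followed in that order. In the scrambled libraries only TERF2IP (23.4 ± 0.147) and ATRX (21.7 ± 1.77 CPM per kilobase) overlapped as neighbours. In the ALKBH5 siRNA libraries the neighbours TINF2 and TERF2IP, TERF2IP and ATRX, ACD and TERF2, and TERF1 and POT1 overlapped. TERF2 came to 17.8 ± 1.55 CPM per kilobase in ALKBH5 siRNA cells, next to ACD at 18.4 ± 1.92, against 9.35 ± 0.744 and 13.2 ± 0.988 CPM per kilobase in scrambled siRNA cells. The order depends on the length used, since with the median coding transcript length only 3 of the 10 genes kept their rank in the scrambled libraries.

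Among the 6 shelterin messages TERF2 held a larger share in every ALKBH5 siRNA library than in any scrambled library. The share of a subunit in the summed reads per kilobase needs no scaling between libraries. TERF2 made up 15.7%, 16.9% and 15.4% in the ALKBH5 siRNA libraries, against 9.92%, 9.63% and 10.6% in the scrambled libraries. TINF2 made up 29.6%, 27.5% and 29.8% in the ALKBH5 siRNA libraries, against 36.7%, 36.0% and 35.8% in the scrambled libraries. These shares separated the groups without overlap, as did those of TERF1 (6.56% ± 0.713 in ALKBH5 siRNA and 7.94% ± 0.683 in scrambled siRNA cells) and POT1 (5.03% ± 0.779 and 6.39% ± 0.215). The shares of TERF2IP and ACD overlapped between the groups. Since shares add up to 100%, a rise of TERF2 lowers the others, and a lower share of TINF2, TERF1 or POT1 is no fall in level. Exact 2-sided permutation tests gave p = 0.1 for the first 4 shares and 0.2 for the last 2, or 0.15 and 0.2 adjusted over the 6, and this design cannot go below 0.1. The summed level of the 6 messages was 111 ± 4.15 CPM per kilobase in ALKBH5 siRNA cells and 93.0 ± 3.51 in scrambled siRNA cells.

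The ratio of TERF2 to TERF1 per kilobase was 2.40, 2.32 and 2.63 in the ALKBH5 siRNA libraries, against 1.14, 1.30 and 1.37 in the scrambled libraries. TERF2 exceeded TERF1 in all 6 libraries on this scale, and the ratio was higher in every ALKBH5 siRNA library than in any scrambled library. The size of the ratio rests on the transcript lengths used, which are the same in both groups. The ratio of TERF2IP to TERF2 was 1.68, 1.67 and 1.69 in the ALKBH5 siRNA libraries, against 2.50, 2.72 and 2.32 in the scrambled libraries. Both ratios had an exact 2-sided permutation p of 0.1, the smallest this design allows.

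**Figure D3:**
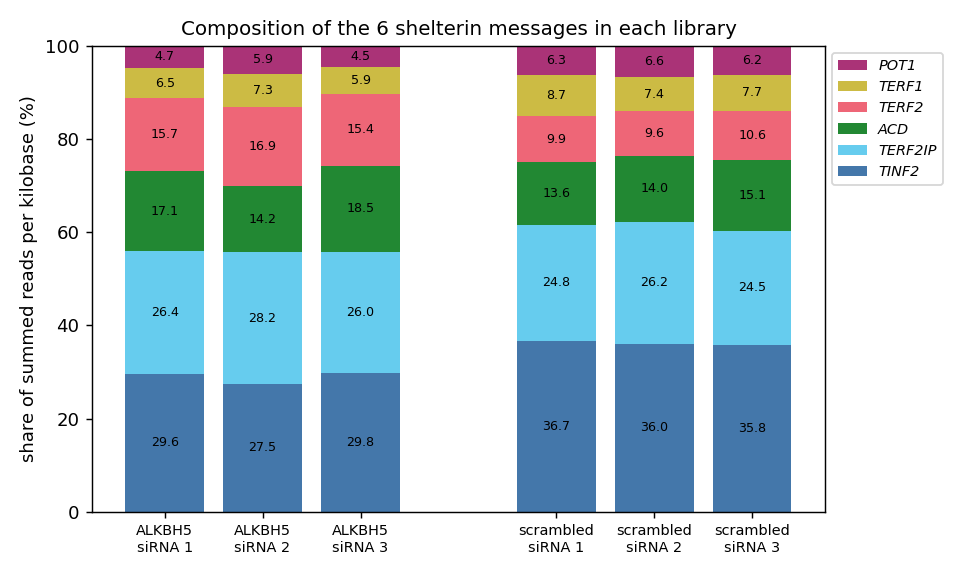
Share of each of the 6 shelterin messages in their summed reads per kilobase (vertical axis, percent) in the 3 ALKBH5 siRNA libraries (left) and the 3 scrambled libraries (right). The TERF2 share lies between 15.4% and 16.9% in ALKBH5 siRNA libraries and between 9.63% and 10.6% in scrambled libraries.

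The 4 genes that rose differed in transcript length and base composition. In GENCODE 29, the longest coding transcript of ATRX had 11167 bases, longer than 97.1% of tested coding genes, while those of TERF2 (2983 bases), TERF2IP (2118) and ACD (2065) were shorter than the median of 3532. Their GC content ran from 36.9% in ATRX to 62.6% in ACD. The pentamer GGACT, read on the sense strand as a core sequence of m6A sites, was present in 93.0% of the 12349 tested coding genes with a transcript, with a median of 0.936 per kilobase. It occurred 7 times in ATRX (0.627 per kilobase), 4 times in TERF2 (1.34 per kilobase), 2 times in ACD (0.969 per kilobase) and once in TERF2IP (0.472 per kilobase). Of the genes that did not pass the test, RTEL1 held 11 copies (2.22 per kilobase), TERF1 3, DAXX and TINF2 2 each and POT1 1. A copy is a description of the sequence, and methylation was not measured in these data.

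The promoters of ACD and TERF2IP, which rose, and of POT1, which did not pass the test, are shown because they are the shelterin promoters with a single start among the RefSeq sequences used (GRCh38.p14). Each line gives the 250 bases before the start, 5′ to 3′ on the gene's strand, with GC boxes (GGGCGG, or CCGCCC on the other strand, not overlapping) in capitals. The windows are chr16:67660261-67660510 on the minus strand for ACD, chr16:75647523-75647772 on the plus strand for TERF2IP and chr7:124929826-124930075 on the minus strand for POT1.
ACD: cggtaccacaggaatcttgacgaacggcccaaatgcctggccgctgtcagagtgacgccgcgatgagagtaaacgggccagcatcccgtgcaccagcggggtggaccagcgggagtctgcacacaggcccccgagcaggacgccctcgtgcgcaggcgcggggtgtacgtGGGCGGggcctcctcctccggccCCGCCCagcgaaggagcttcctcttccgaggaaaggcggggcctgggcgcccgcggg
TERF2IP: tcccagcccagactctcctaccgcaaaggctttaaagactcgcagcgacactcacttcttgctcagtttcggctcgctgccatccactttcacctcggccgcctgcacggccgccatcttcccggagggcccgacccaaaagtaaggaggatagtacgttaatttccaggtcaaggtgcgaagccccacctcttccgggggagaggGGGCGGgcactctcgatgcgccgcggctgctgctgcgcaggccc
POT1: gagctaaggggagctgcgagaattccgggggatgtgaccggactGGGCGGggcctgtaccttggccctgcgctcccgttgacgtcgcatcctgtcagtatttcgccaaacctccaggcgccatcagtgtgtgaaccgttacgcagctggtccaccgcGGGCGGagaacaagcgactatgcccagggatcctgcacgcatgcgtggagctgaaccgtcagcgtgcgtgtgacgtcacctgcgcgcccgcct
ACD held 2 GC boxes, TERF2IP 1 and POT1 2. At least 1 GC box was in 45.0% of 35116 promoter windows of 300 bases. Of the 10 genes, 6 had a promoter entry (TERT, POT1, TINF2, ACD, TERF2IP and RTEL1), 8 entries in all. All 6 had a GC box in at least 1 entry, while 1 RTEL1 entry had 0. The 45.0% counts single windows, so it is not like a count per gene. GC content of the 8 entries was 60.3% to 77.3%, against a median of 58.7% over all windows. Of the 6 genes, 0 had a TATA box (TATAAA, or TTTATA on the other strand), which 11.5% of all windows held.

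The genes around shelterin and ALT were looked at in 5 lists of 73 genes, 69 of them tested. Of these 15 were higher and 27 lower in ALKBH5 siRNA cells, together 60.9%, against 61.6% of all tested genes, and their median log2 fold change was −0.09. Among 19 partners of shelterin, which process or repair chromosome ends, 3 were higher and 7 lower, together 52.6%. NBN, a subunit of the MRE11 break sensor, was at 52.5 ± 7.82 CPM in ALKBH5 siRNA and 30.7 ± 0.333 CPM in scrambled siRNA cells (log2 fold change 0.77, edgeR adjusted p = 7.8e-05), while the gene of its partner MRE11 (MRE11A) fell by 0.52 on the log2 scale and RAD50 did not pass the test (adjusted p = 0.38). ERCC1, part of a nuclease that trims unprotected overhangs, rose by 0.58 on the log2 scale. TNKS1BP1, which binds tankyrase, fell by 0.94 and the helicase gene BLM by 0.82 on that scale. Of the tankyrases, which modify TERF1, TNKS rose by 0.30 and TNKS2 did not pass the test (adjusted p = 0.098).

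Of the CST complex, which binds the overhang and helps to fill in the other strand, OBFC1 (STN1) rose by 0.43 on the log2 scale (51.4 ± 1.97 CPM in ALKBH5 siRNA and 38.2 ± 0.509 CPM in scrambled siRNA cells). CTC1 did not pass the test. TEN1 was listed at 0 in all 6 libraries, which is not read as a level, since reads ambiguous between genes were set aside. In the telomerase list, made of its RNA, the dyskerin complex and assembly factors, 5 of 12 tested genes were lower and 0 higher, with a median log2 fold change of −0.21. Its share past the threshold was 41.7%, all of it lower. Among all tested genes 61.6% passed, 30.8% as higher and 30.8% as lower. RUVBL2 and RUVBL1, paired ATPases used in telomerase assembly and in several other complexes, fell by 0.77 and 0.63 on the log2 scale. DKC1, the gene of dyskerin, did not pass the test (191 ± 15.9 CPM in ALKBH5 siRNA and 199.7 ± 17.7 CPM in scrambled siRNA cells).

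The list of H3.3 genes, other H3.3 chaperones and heterochromatin proteins had 5 higher and 7 lower of 14 tested genes, together 85.7%, against 61.6% of all tested genes. DEK, a chromatin protein that also handles H3.3, rose by 0.93 and SUV39H1, a methyltransferase of histone H3 lysine 9, by 0.90 on the log2 scale. CBX5 and CBX1, which encode heterochromatin protein 1 alpha and beta, fell by 0.92 and 0.91 on that scale. H3F3B was at 452 ± 34.3 CPM in ALKBH5 siRNA and 726 ± 50.8 CPM in scrambled siRNA cells (edgeR adjusted p = 2.0e-05). H3F3A, the other H3.3 gene, was listed at 0 in all 6 libraries. This is not read as a level, since reads ambiguous between genes or with several placements were set aside. HIRA, the chaperone that places H3.3 outside repeats, fell by 0.29 on the log2 scale.

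Of 22 tested ALT factors 6 were higher and 8 lower, together 63.6%, close to the 61.6% of all tested genes. RAD51AP1, which promotes strand invasion in ALT, was at 71.4 ± 6.73 CPM in ALKBH5 siRNA and 29.1 ± 4.26 CPM in scrambled siRNA cells (log2 fold change 1.30, SE 0.12, edgeR adjusted p = 1.7e-06), the largest rise in the 5 lists. SP100, a component of PML bodies, rose by 1.08 on the log2 scale, and PML itself by 0.27. ZNF827, a zinc finger protein found at ALT telomeres, and RPA3, the small subunit of the single-strand binding protein RPA, fell by 0.75 and 0.73 on that scale. The strand-annealing gene RAD52 rose by 0.44, while POLD3, a polymerase delta subunit used in break-induced synthesis, did not pass the test (adjusted p = 0.46). NBN, BLM and SP100 are named by the rule for the lists, while MRE11A, RAD50, TNKS, TNKS2, CTC1, DKC1, H3F3B, HIRA, PML, RAD52 and POLD3 were added for their roles after their values were seen.

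**Figure D4:**
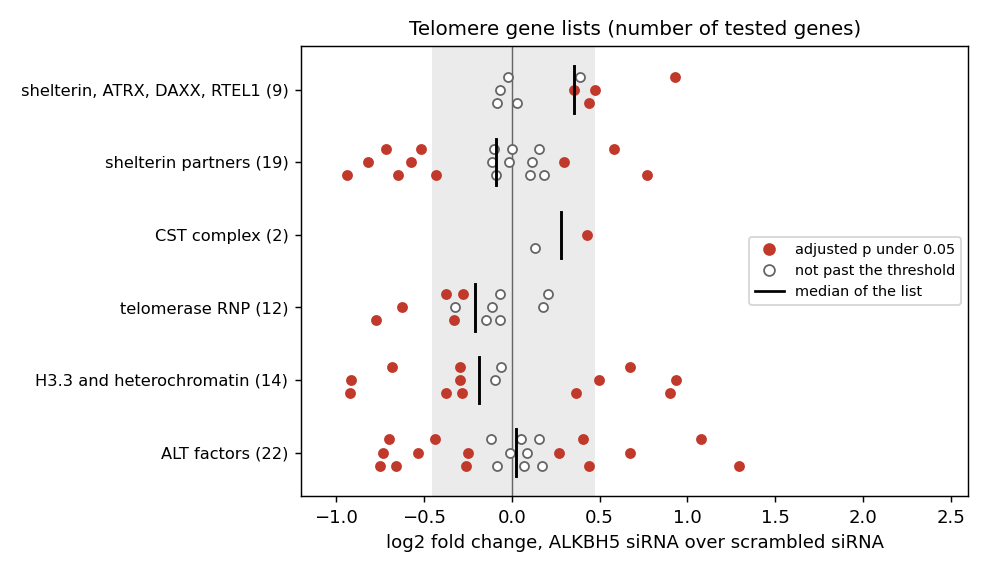
Log2 fold change of ALKBH5 siRNA over scrambled siRNA (horizontal axis) of each tested gene, by list, filled red where the adjusted p is under 0.05 and open otherwise, with black bars at the medians and a grey band between the quartiles of all tested genes. The top row, which holds the 6 shelterin genes with ATRX, DAXX and RTEL1, has no red point below 0, and the telomerase list has none above 0.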

How the data were processed

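Polyadenylated RNA was sequenced from 6 libraries as single reads of 50 bases. The authors deposited unnormalised read counts, 1 per gene symbol and library, per the file headers. CASAVA 1.8.2, TopHat2, SAMtools, HTSeq and the build hg19 are named in the submitters' processing notes. The annotation, like the strand option, is not given in the sources used here. HTSeq's entries show that reads with several placements and reads ambiguous between genes were left out. This makes counts of near-identical copies and of overlapping genes uncertain. The table of the series and the 6 sample files held equal values, and 0 columns matched no sample. The summary entries, among them 17.9% (ALKBH5 siRNA) and 15.3% (scrambled) of uniquely placed reads outside genes, entered no library size and no test.

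Genes were filtered with filterByExpr, scaled with TMM and tested with edgeR 4.0.16 (R 4.3.3; robust glmQLFit and glmQLFTest, 2-sided, group as single term), with Benjamini-Hochberg adjustment over 14504 genes and a threshold of 0.05. SE is the log2 fold change divided by the root of the F statistic, and 95% intervals use its degrees of freedom. The test was checked on simulated counts in which few genes changed and all genes had the same variability. That check does not cover a change as broad as the one in these data. Counts of libraries of 1 group differed beyond sampling noise (chi-square over its degrees of freedom 6.18 to 16.9), so no library was treated as another one deposited again. Transcript lengths and GGACT counts are from GENCODE 29, which matched 87.6% of tested genes by current or older symbol. These intervals include the spread between libraries, while limits of 3 reads cover counting error only.

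The genes and lists were chosen with earlier results of these data known, and no set test was run. By rule the text names ALKBH5, the 10 genes and, in each list, up to 2 higher and 2 lower genes. These list genes have the largest change among those past the threshold whose groups do not overlap. Further list genes were added after their values were seen, as given in the Results. Alternatives were RLE, upper quartile and no scaling factors, 2 other filters, DESeq2 1.42.0, limma-voom (limma 3.58.1), a fit without robust moderation, glmTreat, a term for the replicate number, and each library left out in turn.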

Additional observations from a re-analysis of the deposited data

How the results depend on the processing

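TERF2, TERF2IP, ACD and ATRX stayed higher and past the threshold under 15 of the 16 alternatives; the exception was glmTreat against a 1.5-fold change, which kept TERF2 alone. With glmTreat 1 of the 10 telomere genes and 1 of the 6 shelterin genes was higher, the other telomere lists had 4 higher and 5 lower genes, and all genes 1891 higher and 1710 lower. Leaving out 1 library at a time, the telomere genes stayed at 4 higher and 0 lower, shelterin at 3 and 0, the other lists spanned 13 to 17 higher and 23 to 26 lower, and all genes 3899 to 4391 higher and 3979 to 4325 lower. Apart from glmTreat, adjusted p-values reached at most 0.000165 for TERF2, 0.0111 for ATRX, 0.02 for ACD and 0.0203 for TERF2IP. The genes below the threshold stayed there, but the sign of DAXX (−0.04 to 0.06), TERF1 (−0.13 to 0.07) and POT1 (−0.25 to 0.01) varied with the setting.

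The share of TERF2 was higher by 5.48 to 6.25 percentage points when 1 library was left out, and by 7.25 points with no division by length, where the share of POT1 differed by −2.3 points. Left-out libraries gave −7.69 to −6.51 points for TINF2, −1.74 to −0.995 for TERF1, −1.80 to −1.07 for POT1, 1.01 to 2.21 for TERF2IP and 1.44 to 3.56 for ACD. With the median transcript length 3 of the 10 genes kept their rank in level. Samples with the same replicate number correlated in their deviations from the group means at 0.331, 0.0578 and 0.351. Those with different numbers correlated at −0.367 to 0.0768, and each ALKBH5 siRNA library correlated best with the scrambled library of its own number. A shared replicate effect is therefore possible. Whether the numbers pair the samples is not in the labels, and the main test did not pair them. With the replicate block 4 telomere genes were higher and 0 lower. All genes then numbered 4865 higher and 4895 lower, against 4471 higher and 4466 lower in the main test. Scrambled replicate 2 correlated best with ALKBH5 siRNA replicate 1 (0.0768). RTEL1 had 39 to 70 reads per library and ranged from 0.17 to 0.55 on the log2 scale, and TERT had at most 1 read per library.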

Other observations

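Some of the telomere genes have a neighbour that starts within 1 kilobase on the other strand. KARS, the lysyl-tRNA synthetase gene next to TERF2IP, was at 348 ± 30.0 CPM in ALKBH5 siRNA and 282 ± 3.60 CPM in scrambled siRNA cells (log2 fold change 0.30, SE 0.08, edgeR adjusted p = 0.0054). Its exons cover 5.21% of the exonic bases of TERF2IP on the other strand. STMN3, a stathmin family gene that starts next to RTEL1, was at 77.3 ± 8.57 CPM in ALKBH5 siRNA and 31.2 ± 5.74 CPM in scrambled siRNA cells (log2 fold change 1.31, SE 0.13, edgeR adjusted p = 5.9e-06). PARD6A, a cell polarity gene next to ACD, was at 0.881 ± 0.324 CPM in ALKBH5 siRNA and 1.36 ± 0.467 CPM in scrambled siRNA cells and did not pass the test (edgeR adjusted p = 0.16).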
